A study of Mus musculus with 6 samples.

Results

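Colonic lamina propria macrophages (LP MΦs) of Il10rb-/- mice were compared between 3 weeks and 1 week of age, with 1 RNA-seq library at each age. The comparison covers 10320 of the 14097 genes in the table, namely those with 50 or more normalized counts in at least 1 of these 2 libraries. Both libraries came from untreated mice on the 129SvEv background that lack the beta chain of the IL10 receptor, and the cells were sorted ex vivo as P3/P4 MΦs (CD45+CD11b+CD11cintCD103-CD64+Ly6C-MHCII+), a gate that holds mature resident MΦs and leaves out Ly6C+ monocytes. The 1-week library came from pooled colons and the 3-week library from 1 mouse. Littermate Il10rb+/- MΦs of the same ages, prepared in the same way with 1 library each, show which differences also occurred with 1 working copy of the receptor gene, and the 12-week libraries of both genotypes, each from 1 mouse, are given for reference. The study followed these cells over the age at which colitis begins in Il10rb-/- mice.

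IL10 is an anti-inflammatory cytokine that signals through a receptor of IL10Ra and IL10Rb chains, and in MΦs it restrains the transcription of inflammatory cytokines through STAT3. Resident MΦs of the colon are seeded before birth and are largely replaced around weaning by cells that derive from blood monocytes, while a self-renewing population of long-lived tissue MΦs persists. Interferon turns on guanylate-binding proteins, immunity-related GTPases, chemokines and the class I antigen presentation machinery.

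With 1 library per genotype and age, differences within Il10rb-/- could not be checked against replicates, and they carry no p-value. A log2 ratio (3 weeks over 1 week) of 1 is a 2-fold higher level at 3 weeks, and the intervals given are exact 95% intervals that cover counting error only. Reads on the listed genes numbered 9892762 at 1 week and 19128951 at 3 weeks in Il10rb-/-, and between 6700337 and 40754971 over all 6 libraries, so that 1 read was worth 1.498 normalized counts in the 1-week and 0.879 in the 3-week Il10rb-/- library. The deleted gene, Il10rb, had 12.0 normalized counts (8 reads) at 1 week and 24.6 (28 reads) at 3 weeks, against 1221 and 939 in Il10rb+/-. The genes nearest to the filter were Rab23, Ctgf and Celf4 just inside (50.1 normalized counts each in the higher library) and Traf4, Atl1 and Ptgfrn just outside (49.4 each). A gene under 50 normalized counts at 1 week passed only through the 3-week library, so the filter itself made it higher at 3 weeks. The reverse holds for a gene under 50 at 3 weeks. Lyve1, Cbr2, Ly6c2, Nos2, Saa3 and C4b, named in the lists that follow, were under 50 at 1 week. In bulk libraries, fewer cells of a type and less RNA per cell cannot be told apart, which holds for every result that follows.

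Markers of mature colonic MΦs were present at both ages. Csf1r, the receptor for the MΦ growth factor CSF1, had 53060.0 normalized counts at 1 week and 60398 at 3 weeks. Adgre1, which encodes F4/80, had 17653 and 20883, and Fcgr1, which encodes CD64, had 2043 and 1629. Over the list of resident gut MΦ genes, 21 of 21 passed the filter, and their median log2 ratio of 0.03 lay close to that of all 10320 genes (0.003). Only Siglec1 (log2 ratio 2.05) and Pltp (1.79) of this list differed by over 3-fold, both higher at 3 weeks, while the fractalkine receptor Cx3cr1 was lower (16857 at 1 week, 10577 at 3 weeks, log2 ratio -0.67).

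In Il10rb-/- MΦs, the level at 3 weeks exceeded that at 1 week by over 3-fold for 289 genes (2.8% of those compared) and lay over 3-fold under it for 84 (0.814%). Of these 373 genes, 18 rested on 3 reads or fewer in 1 of the libraries. Over the same genes in Il10rb+/-, 337 (3.27%) were higher and 95 (0.921%) lower at 3 weeks by this size. The 2 genotypes share no library in these comparisons. Of the genes higher in Il10rb-/-, 173 were also over 3-fold higher in Il10rb+/-, which is 59.9% of the 289 and 51.3% of the 337. Of those lower, 33 were also lower by over 3-fold in Il10rb+/-, which is 39.3% of the 84 and 34.7% of the 95.

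**Figure D1:**
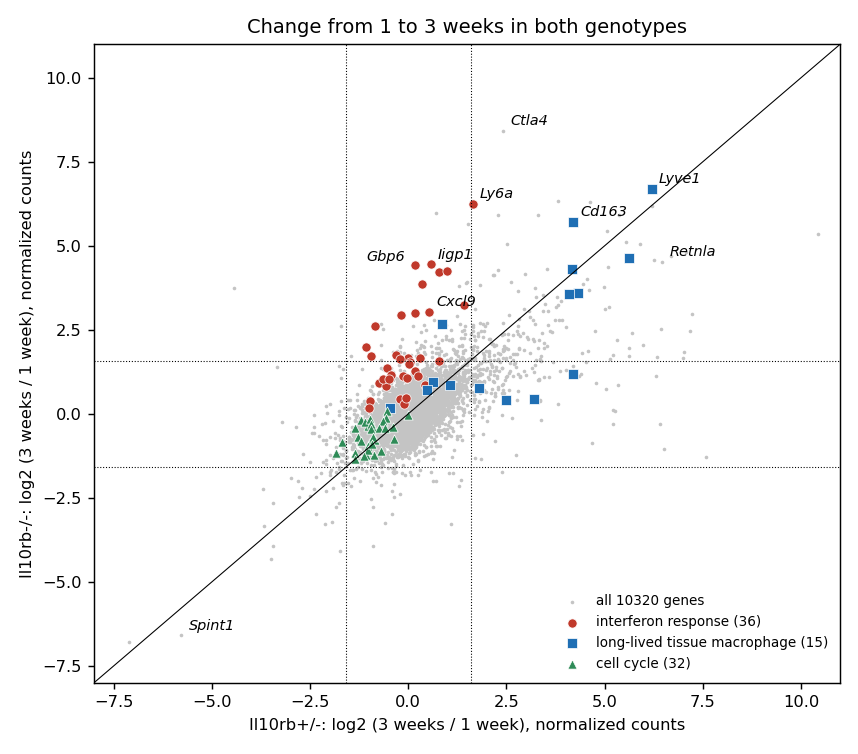
Log2 ratio of normalized counts at 3 weeks over 1 week for 10320 genes, with Il10rb+/- on the horizontal and Il10rb-/- on the vertical axis; each point is 1 gene, a count of 0 is taken as 1, dotted lines mark 3-fold and the solid line equal change. The 36 interferon response genes lie above the line of equal change, with a median of 1.56 in Il10rb-/- and -0.05 in Il10rb+/-, while Lyve1 and Spint1 lie near it.

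In Il10rb-/- MΦs the interferon response genes were higher at 3 weeks than at 1 week, while in Il10rb+/- MΦs the list as a group stood near its 1-week level. Of 40 genes listed, 39 were in the table and 36 passed the filter, and each of the 36 was higher at 3 weeks with a counting interval above 0, as were 3284 of all 10320 genes, although Cxcl10 fell below 0 when libraries were scaled by total reads. Among them 17 were over 3-fold higher, against 2.8% of all genes compared, and none was lower by that size. Ly6a (28.5 normalized counts at 1 week), Ly6i (43.4), Gbp6 (10.5), Tgtp2 (13.5) and Cxcl11 (31.5) passed the filter only through the 3-week library. The filter itself made such members higher at 3 weeks. The median log2 ratio of the 36 was 1.56 in Il10rb-/- and -0.05 in Il10rb+/-. For 36 of 36 the Il10rb-/- ratio exceeded the Il10rb+/- ratio, as it did for 5799 of all 10320 genes. Of these members 8 belong to a heat map that the study drew from genes differing between the genotypes at 3 weeks in these same libraries, so they are not independent evidence. Without them the median was 1.22, with 9 of 28 over 3-fold higher. The 3 listed genes that missed the filter, Tgtp1, Ido1 and Ubd, had 0, 1 and 0 reads at 1 week and 31, 6 and 2 at 3 weeks.

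Ly6a, which encodes the surface antigen Sca-1 (chr15:74994877-74998031, GRCm38), had 28.5 normalized counts (19 reads) at 1 week, 2169 (2467 reads) at 3 weeks and 4760.4 at 12 weeks in Il10rb-/-, and 44.6, 139 and 909 in Il10rb+/-. It was 76.2-fold higher at 3 weeks than at 1 week in Il10rb-/- (log2 ratio 6.25, interval 5.61 to 6.99), and its level at 3 weeks exceeded every Il10rb+/- library. Its neighbour Ly6i (chr15:74979534-74983430) had 43.4 and 809.9 normalized counts (log2 ratio 4.22, interval 3.69 to 4.81). The Ly6 genes are near copies of each other, so reads may have been split between them.

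The list also holds GTPases that act on intracellular pathogens. The guanylate-binding protein gene Gbp4 (chr5:105115767-105139586) had 536, 4115 and 5932 normalized counts at 1, 3 and 12 weeks in Il10rb-/- and 1725, 1528 and 1124 in Il10rb+/-, so that the Il10rb-/- library was the lower of the 2 at 1 week and the higher at 3 weeks. Gbp6 was 21.6-fold higher at 3 weeks (7 and 258 reads) and Gbp2 had 186 normalized counts at 1 week and 1474 at 3 weeks (log2 ratio 2.99, interval 2.72 to 3.26), while in Il10rb+/- the intervals of both genes included 0 (log2 ratios 0.17 and 0.17). Among the immunity-related GTPases, Iigp1 had 80.9 and 1767 normalized counts and Tgtp2 13.5 and 256, with log2 ratios of 4.45 and 4.25, against 0.57 and 0.97 in Il10rb+/-. Tgtp1 and Tgtp2 are near-identical and the Gbp genes lie in a cluster of related copies, so the division of reads among them is uncertain.

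The chemokines that draw T cells through CXCR3 split. Cxcl9 (chr5:92321347-92328079) had 277 normalized counts at 1 week, 2277 at 3 weeks and 7744 at 12 weeks in Il10rb-/-, against 135, 195 and 512 in Il10rb+/- (log2 ratio in Il10rb-/- 3.04, interval 2.82 to 3.26). Cxcl11 had 31.5 and 455 (log2 ratio 3.86, interval 3.23 to 4.56). Cxcl10 had the lowest ratio of the list, with 10553 at 1 week and 11871 at 3 weeks (log2 ratio 0.17). The transcription factors that carry the signal were higher by less, with a log2 ratio of 1.13 for Irf1, 0.90 for Irf7 and 0.30 for Irf9. The interferon gamma gene itself, Ifng, was under the filter, with 0 and 4 reads.

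At 1 week 30 of the 36 members had a lower level in Il10rb-/- than in Il10rb+/-, as did 5641 of all 10320 genes, and at 3 weeks 0 of 36 did, against 4857 of all. Among the examples, chosen after their values were seen, Ifit1 had 111 normalized counts at 1 week and 368 at 3 weeks in Il10rb-/-, and 665 and 343 in Il10rb+/-. Ifit2 had 338 and 1333 in Il10rb-/- and 1746 and 823 in Il10rb+/-. Rsad2, which encodes the antiviral protein viperin, had 208 and 1276 in Il10rb-/- and 732 and 404 in Il10rb+/-. At 3 weeks Ifit1 was at a like level in both genotypes.

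**Figure D2:**
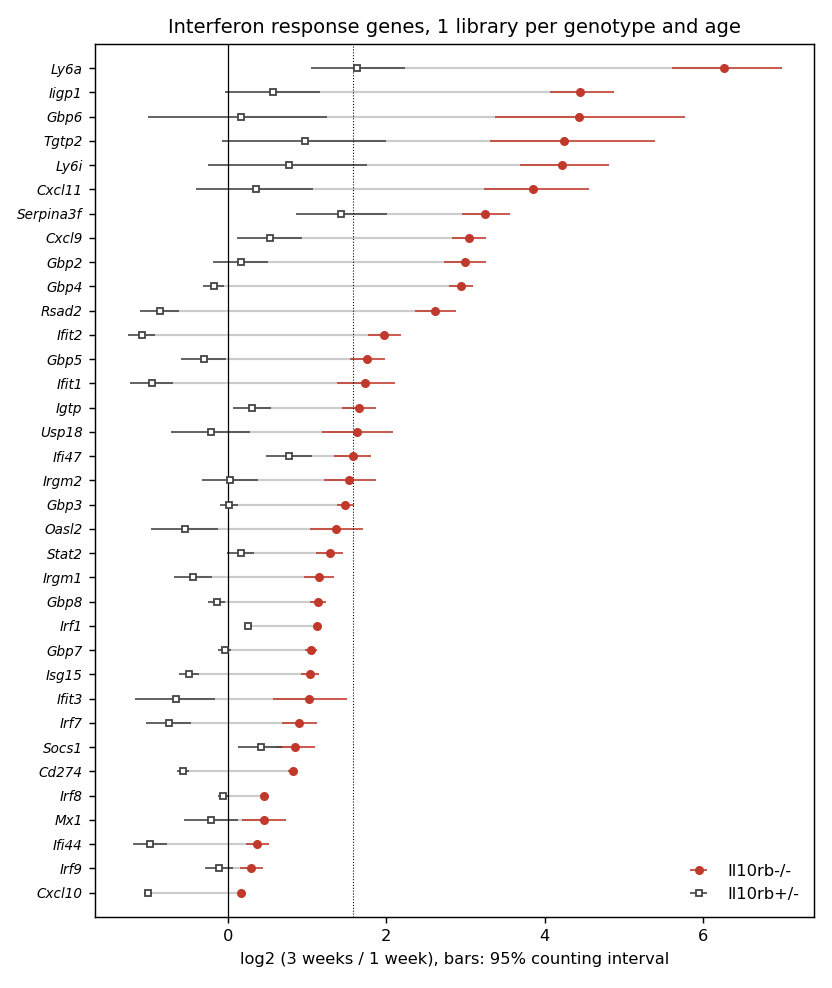
Log2 ratio of 3 weeks over 1 week for 35 of the 36 interferon response genes that passed the filter, ordered by the Il10rb-/- value (filled circles) with the Il10rb+/- value of the same gene (open squares); bars are exact 95% counting intervals from 1 library per genotype and age, and the dotted line marks 3-fold. On the authors' scaling every circle lies to the right of 0 and of its square, from Ly6a at 6.25 down to Cxcl10 at 0.17.

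Sequences upstream of 3 high-ranking members in the RefSeq promoter table (GRCm38.p6) are shown. They were chosen by their rank in Il10rb-/- among members with an entry, by the rule given with the processing. Each of these genes was over 3-fold higher at 3 weeks in Il10rb-/- and not in Il10rb+/-, but the Il10rb+/- values played no part in the choice. Each run holds the 250 bases before the annotated start, 5′ to 3′ on the gene's strand. Capitals mark matches, on either strand, to the gamma-activated site (GAS, TTCNNNGAA), to the core of the interferon-stimulated response element (ISRE, GAAANNGAA) or to the kappaB core (GGNNTTTCC). An AP-1 site (TGANTCA) was also searched for and was in none of these runs.
Tgtp2, chr11:49064213-49064462, minus strand: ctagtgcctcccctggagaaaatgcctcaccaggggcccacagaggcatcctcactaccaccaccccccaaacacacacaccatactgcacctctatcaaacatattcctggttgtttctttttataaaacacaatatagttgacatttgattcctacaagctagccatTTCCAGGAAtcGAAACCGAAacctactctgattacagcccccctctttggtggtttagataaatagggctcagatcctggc
Serpina3f, chr12:104214294-104214543, plus strand: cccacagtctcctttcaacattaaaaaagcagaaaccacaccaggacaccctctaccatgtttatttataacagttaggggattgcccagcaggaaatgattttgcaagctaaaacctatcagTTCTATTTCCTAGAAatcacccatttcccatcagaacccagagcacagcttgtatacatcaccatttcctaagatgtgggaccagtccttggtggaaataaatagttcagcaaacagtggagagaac
Cxcl9, chr5:92328080-92328329, minus strand: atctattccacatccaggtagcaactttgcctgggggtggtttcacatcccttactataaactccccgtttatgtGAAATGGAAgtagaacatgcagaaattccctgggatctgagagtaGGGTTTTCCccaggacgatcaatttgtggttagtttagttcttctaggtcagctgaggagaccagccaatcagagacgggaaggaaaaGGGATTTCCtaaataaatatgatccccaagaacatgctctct

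In Tgtp2 the GAS match begins 81 bases before the start and the ISRE core 70 bases before it. In Serpina3f, which encodes a serine protease inhibitor (148 normalized counts at 1 week and 1407 at 3 weeks) and has another annotated start downstream, the matches to the 2 motifs overlap. In Cxcl9 there is an ISRE core and 2 kappaB cores, the nearer of which begins 42 bases before the start. Among 32851 promoters of the table, 7.02% hold the GAS letters, 7.13% the ISRE core and 4.93% the kappaB core. The 26 interferon response genes with an entry have 32 promoters, of which 10 (31.2%) hold GAS and 19 (59.4%) the ISRE core. Among the 255 promoters of the genes over 3-fold higher in Il10rb-/-, the shares were 7.45% and 10.98%. Among the 10331 promoters of all genes that passed the filter, they were 6.01% and 6.48%. A match of letters is a description of the window and not evidence of binding.

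The class I antigen presentation genes were higher at 3 weeks in 16 of 16 members, each with an interval above 0 (14 of 16 when scaled by total reads, without B2m and Psme1), while 5192 of all 10320 genes were higher and 3284 had such an interval, and their median log2 ratio was 0.81 in Il10rb-/- and 0.09 in Il10rb+/-. Over 3-fold were H2-Q7, a nonclassical class I gene (1079.9 and 6555 normalized counts), Nlrc5, the transactivator of class I genes (174 and 643), and Tap1, a subunit of the peptide transporter (1079.9 and 3656). The classical H2-K1 had 14825 normalized counts at 1 week and 36315 at 3 weeks (log2 ratio 1.29, interval 1.26 to 1.32), while B2m, the shared light chain, was near level (59048 and 61896). Class I genes are similar in sequence, so reads may be shared among them. Of the class II list 11 of 12 members were higher with an interval above 0 (7 were higher when scaled by total reads), but 0 of 12 were past 3-fold, with a median of 0.27 in Il10rb-/- and 0.30 in Il10rb+/-. H2-Ab1, which encodes a chain of the class II molecule that the gate selects on, had 171779 and 239990.0, and the invariant chain gene Cd74 had 422300.0 and 506153.

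Genes of long-lived tissue MΦs were also higher at 3 weeks, but in both genotypes. Of 16 listed genes 15 passed the filter. Each of the 15 was higher with an interval above 0 (14 when scaled by total reads, without Stab1). Of all 10320 genes 3284 had such an interval. Over 3-fold higher were 7 of the 15, against 2.8% of all genes. The median log2 ratio of the 15 was 1.19 in Il10rb-/- and 3.20 in Il10rb+/-. The median level of the 15 genes was 165 normalized counts at 1 week, 1241 at 3 weeks and 43.9 at 12 weeks in Il10rb-/-, against 247, 1694 and 2410 in Il10rb+/-. The gene left out, Vsig4, had 2 and 21 reads in Il10rb-/-.

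Lyve1, which encodes a hyaluronan receptor and marks perivascular MΦs (chr7:110850607-110863239), had 12.0 normalized counts (8 reads) at 1 week, 1241 (1411 reads) at 3 weeks and 2.55 at 12 weeks in Il10rb-/-. In Il10rb+/- it had 17.8, 1312 and 3120.4. At 3 weeks the genotypes were alike, and at 12 weeks only 4 reads of it were left in the Il10rb-/- library, while the Il10rb+/- library was the highest of the 6. Cd163, the scavenger receptor for haemoglobin (chr6:124304656-124330527), had 55.4, 2901 and 52.2 in Il10rb-/- and 247, 4536 and 4112 in Il10rb+/-. The folate receptor gene Folr2 had 83.9, 1017 and 5.73 in Il10rb-/-. In these 3 genes the 3-week Il10rb-/- library stood over both other Il10rb-/- libraries.

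F13a1, the A subunit of coagulation factor XIII, was 20.0-fold higher at 3 weeks in Il10rb-/- (455 and 9089), and had 746 and 13406 in Il10rb+/-. Cbr2, a carbonyl reductase, was 24.9-fold higher in Il10rb-/- (44.9 and 1119) and 48.7-fold in Il10rb+/-. Timd4, the phosphatidylserine receptor of long-lived MΦs, had the higher ratio in Il10rb-/-, with 114, 725 and 1535 in Il10rb-/- and 304, 555 and 985 in Il10rb+/-. The C-type lectin genes Cd209f and Cd209g had higher 1-week levels in Il10rb-/- (502 and 165) than in Il10rb+/- (87.3 and 22.8) and like levels at 3 weeks (688 and 375 against 803 and 414). Insulin-like growth factor 1, Igf1, was also the higher in Il10rb-/- at 1 week but the lower at 3 weeks, with 769.9 and 1015 in Il10rb-/- and 452 and 2533 in Il10rb+/-.

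The alternative activation list, which holds genes induced by IL4 and IL13, had 12 of 15 members past the filter. Over 3-fold higher were 4, against 2.8% of all genes, and the list's median was 1.13 in Il10rb-/- and 1.23 in Il10rb+/-. Retnla, which encodes the secreted protein RELMalpha (chr16:48842551-48844461), had 620.1, 14214 and 337 normalized counts at 1, 3 and 12 weeks in Il10rb-/- and 438, 38836 and 52045 in Il10rb+/-. Ccl8, a chemokine for monocytes and eosinophils (chr11:82115185-82116799), had 83.9, 2752 and 283 in Il10rb-/- and 32.7, 1947 and 1424 in Il10rb+/-. Both genes were far higher at 3 weeks than at 1 week in either genotype, and lower again at 12 weeks in Il10rb-/-. Ccl24 (eotaxin-2) was 5.04-fold and the transcription factor gene Egr2 3.47-fold higher at 3 weeks in Il10rb-/-, against 6.31-fold and 4.19-fold in Il10rb+/-. Ccl17, which attracts T cells through CCR4, was lower, with 243 normalized counts at 1 week and 121 at 3 weeks. Arg1 was under the filter, with 9 and 3 reads.

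**Figure D3:**
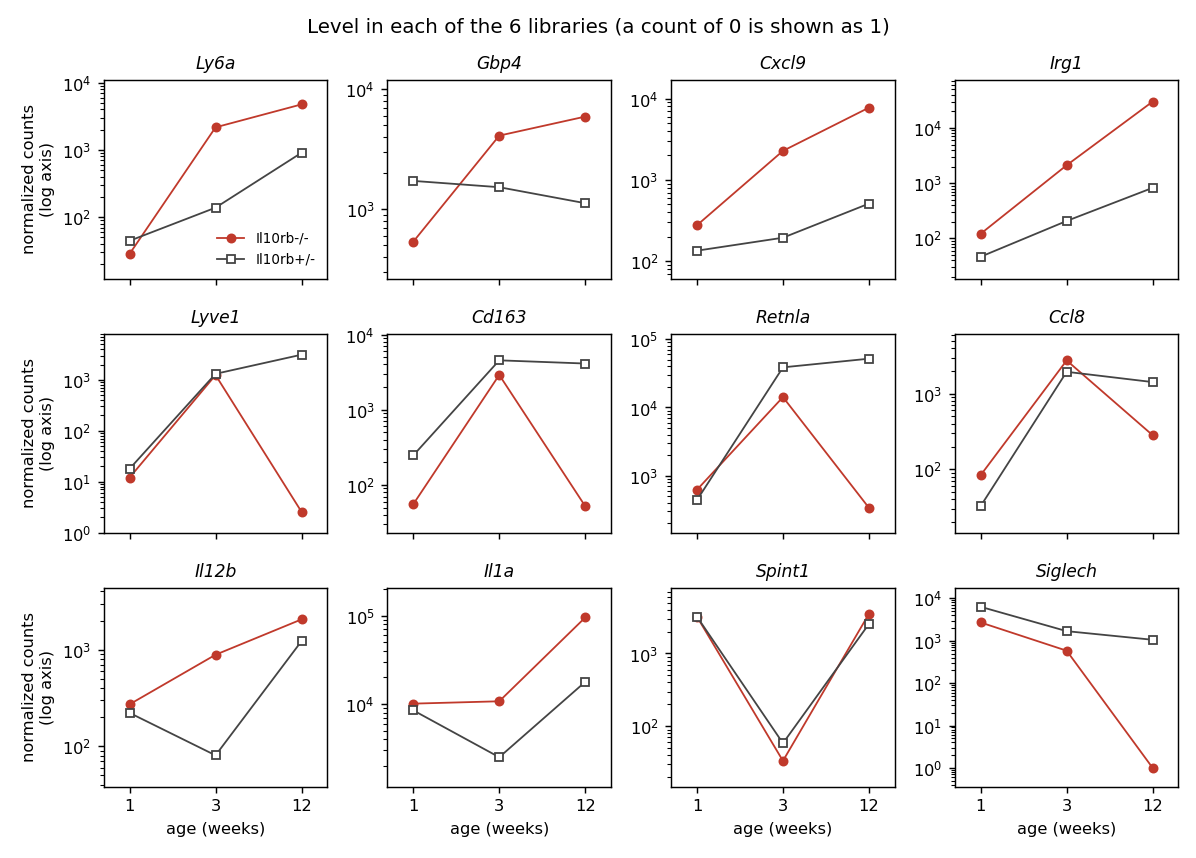
Normalized counts (log axis) of 12 genes at 1, 3 and 12 weeks, evenly spaced, in Il10rb-/- (filled red circles) and Il10rb+/- (open squares); each point is 1 library, and a count of 0 is drawn at 1. Ly6a, Gbp4, Cxcl9 and Irg1 climb with age in Il10rb-/-, Lyve1, Cd163, Retnla and Ccl8 peak at 3 weeks there, and Spint1 is low in both 3-week libraries.

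Monocyte genes were higher at 3 weeks in 12 of the 13 members past the filter, against 5192 of all 10320 genes. Over 3-fold higher were 7, against 2.8% of all genes, and the list's median was 1.60 in Il10rb-/- and 2.09 in Il10rb+/-. Ly6c2, one of the genes for the Ly6C antigen by which monocytes were gated out, had 3 reads at 1 week and 324 at 3 weeks (285 normalized counts), which is 63.4-fold higher (log2 ratio 5.99, interval 4.43 to 8.27). In Il10rb+/- it had 5.95 and 9.73 normalized counts. Lyz1, a lysozyme gene, was 28.0-fold higher in Il10rb-/- (217 and 6072) and 134-fold higher in Il10rb+/-, and its reads may be mixed with those of its near copy Lyz2 (88072 and 157181). Plac8 had 341 normalized counts at 1 week and 1706 at 3 weeks. Ccr2, the receptor that brings monocytes to tissue, had 10700.1 and 19378 in Il10rb-/- (log2 ratio 0.86) and 3960.1 and 20629 in Il10rb+/- (2.38). At 1 week both Ccr2 and the fibronectin gene Fn1 (2504 against 680.2) were higher in Il10rb-/- than in Il10rb+/-.

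Among 18 proinflammatory cytokine genes past the filter, 3 passed 3-fold upwards and 1 downwards, against 2.8% and 0.814% of all genes. The list's median log2 ratio was 0.65 in Il10rb-/- and 0.26 in Il10rb+/-. Il12b, the shared p40 subunit of IL12 and IL23 (chr11:44400063-44414033), had 271, 885 and 2056 normalized counts in Il10rb-/- and 221, 80.3 and 1225 in Il10rb+/-, so that the genotypes moved in opposite directions (1.71 against -1.46), a difference that was not tested. Lif (147 and 502) and Il27 (50.9 and 180.3), cytokines of the IL6 and IL12 families, were the others higher. Csf2, which encodes GM-CSF, was lower (65.9 and 17.6).

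Il1a, Il1b and Tnf, the main products of activated MΦs in this list, differed by less than 3-fold between the ages. Il1a had 10108 at 1 week, 10746 at 3 weeks and 95237 at 12 weeks in Il10rb-/-, and its log2 ratio of 0.09 turned to -0.095 when libraries were scaled by total reads. In Il10rb+/- it had 8488, 2504 and 17825. Il1b had 66014 and 122372 (log2 ratio 0.89, interval 0.87 to 0.91) and Tnf 10768 and 15567 (log2 ratio 0.53, interval 0.49 to 0.57). Il23a, the p19 subunit of IL23, had 269.6 normalized counts at 1 week and 616 at 3 weeks in Il10rb-/- (log2 ratio 1.19) and 77.3 and 109.5 in Il10rb+/-. Il6 had 277 and 638 in Il10rb-/- and 114 and 674 in Il10rb+/-. Il12a, the p35 subunit of IL12, stayed under the filter with 7 and 38 reads.

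Of 21 NF-kappaB targets and inducible effectors past the filter, 5 were over 3-fold higher in Il10rb-/-, against 2.8% of all genes, and none lower. In Il10rb+/- 5 of the 21 were also over 3-fold higher, against 3.27% of all genes. The list's median was 0.68 in Il10rb-/- and 0.20 in Il10rb+/-. Irg1, the mitochondrial enzyme that makes itaconate (chr14:103046977-103056573), had 121, 2109 and 29911 normalized counts in Il10rb-/- and 46.6, 207 and 823 in Il10rb+/-. Nos2, the inducible nitric oxide synthase, had 3 reads at 1 week and 77 at 3 weeks, which is 15.1-fold higher (log2 ratio 3.91, interval 2.31 to 6.22). Saa3, an acute-phase apolipoprotein gene, had 13.5 and 320.1 in Il10rb-/- and 9.92 and 752 in Il10rb+/-, so its 3-week level was higher in Il10rb+/-. Slpi, a secreted protease inhibitor, had 79.4 normalized counts at 1 week and 552 at 3 weeks in Il10rb-/-, and 17.8 and 253 in Il10rb+/-. Its ratio was thus the higher in Il10rb+/- (14.2-fold against 6.96-fold).

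Of the 12 CC chemokine genes, 4 were over 3-fold higher in Il10rb-/-, against 2.8% of all genes: Ccl5, Ccl6, Ccl8 and Ccl24. Another 4 were lower there with an interval below 0, as were 2982 of all 10320 genes. In Il10rb+/- 6 of the 12 were over 3-fold higher and 2 lower, against 3.27% and 0.921% of all genes. The list's median was 0.98 in Il10rb-/- and 1.24 in Il10rb+/-. The Il10rb-/- ratio was the higher for 3 of the 12, against 5799 of all 10320 genes. Ccl5, a chemokine for T cells, had 129, 531 and 2154 in Il10rb-/- and 300.4, 185 and 725 in Il10rb+/-, again in opposite directions between 1 and 3 weeks. Ccl2, the ligand of CCR2, was higher in both genotypes (6756 to 17455 in Il10rb-/-, 7794 to 31419 in Il10rb+/-). The neutrophil chemokine Cxcl2 was level (92039.5 and 92254). The co-stimulatory receptor gene Cd40 had 461 and 1621 in Il10rb-/- and 954 and 881 in Il10rb+/-.

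The anti-inflammatory and regulatory genes were higher at 3 weeks in 19 of 19 members (18 when scaled by total reads, without Tgfb1), against 5192 of all 10320 genes, and 2 were over 3-fold higher (2.8% of all genes), with a median of 0.67 in Il10rb-/- and 0.59 in Il10rb+/-. Those past 3-fold were Il18bp, the secreted decoy for IL18 (142 and 511), and Tsc22d3, a glucocorticoid-induced leucine zipper gene (3105 and 9344). Il10 had 1120.3 and 1619.7 (log2 ratio 0.53, interval 0.41 to 0.66) and the other receptor chain, Il10ra, 6222 and 8971 (log2 ratio 0.53). Il1rn, the IL1 receptor antagonist, had 17479 normalized counts at 1 week and 43682 at 3 weeks in Il10rb-/-, and 5509.8 and 20687 in Il10rb+/-.

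Complement genes were over 3-fold higher in 4 of 14 members, against 2.8% of all genes, and in 3 of 14 in Il10rb+/-. Of the others, 4 had a ratio under 0 in Il10rb-/-, and the median was 0.43 in Il10rb-/- and 0.45 in Il10rb+/-. C4b (chr17:34728380-34743882), part of the classical pathway, had 12.0 and 722 normalized counts in Il10rb-/- and 9.92 and 406 in Il10rb+/-, though its near copy C4a can share its reads. C3, the central component, had 1478 and 5991. Hal, histidine ammonia-lyase, was 25.7-fold higher in Il10rb-/- (141 and 3618) and 103-fold higher in Il10rb+/- (19.8 and 2042).

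Metabolic lists differed little. No sterol synthesis gene passed 3-fold, but the list stood at a median of 0.32 in Il10rb-/- and -0.23 in Il10rb+/-. Of its 21 members, 20 had the higher ratio in Il10rb-/-, as did 5799 of all 10320 genes. At 1 week 20 of the 21 had a lower level in Il10rb-/- than in Il10rb+/-, and at 3 weeks 5 did. Over all 10320 genes these numbers were 5641 and 4857. Glycolysis and hypoxia genes had a median of 0.39 with 1 of 23, the hexokinase gene Hk1 (337 and 1115), past 3-fold. Fatty acid oxidation genes had 0 of 15 past 3-fold and a median of -0.14. Of single genes, the metalloreductase gene Steap4 was 7.84-fold higher at 3 weeks in Il10rb-/- and 149-fold (4 and 243 reads) in Il10rb+/-. The vitamin D receptor gene Vdr was 3.19-fold and 5.35-fold higher, and the flagellin receptor gene Tlr5 3.1-fold and 3.14-fold.

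**Figure D4:**
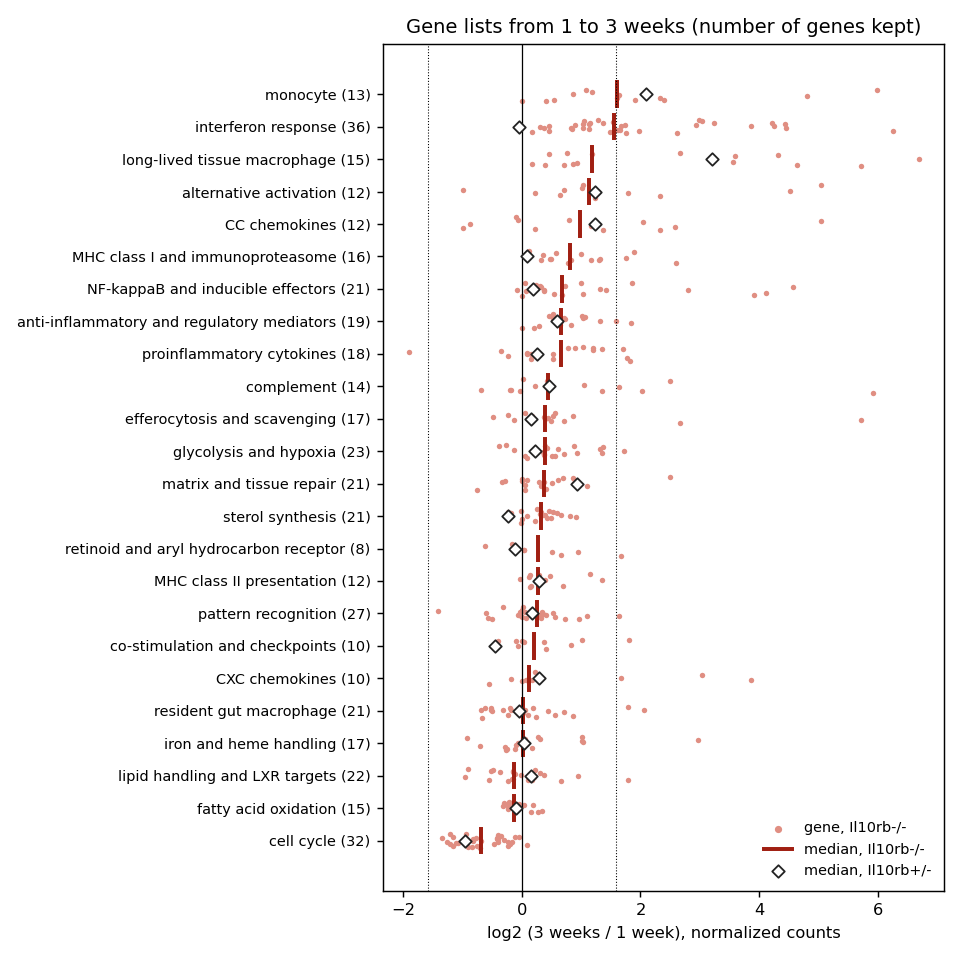
Log2 ratio of 3 weeks over 1 week for the members of 24 gene lists that passed the filter (number in parentheses), with points for single genes and dark bars for medians in Il10rb-/-, open diamonds for medians in Il10rb+/-, and dotted lines at 3-fold; some genes stand in more than 1 list. The interferon response has the widest gap between the genotypes' medians in that direction (1.56 against -0.05), the long-lived MΦ list the widest in the other (1.19 against 3.20), and the cell cycle list lies lowest in Il10rb-/- (-0.69).

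Cell cycle genes were lower at 3 weeks. Of 32 members, 31 had a ratio under 0 (32 when scaled by total reads), 28 with an interval below 0, against 5128 and 2982 of all 10320 genes, and none reached 3-fold, with a median of -0.69 in Il10rb-/- and -0.96 in Il10rb+/-. Cenpe, a mitotic kinesin gene, had 434, 171 and 40.8 normalized counts at 1, 3 and 12 weeks in Il10rb-/-. Cdk1, the kinase that drives mitosis, had 515, 245 and 66.2. The proliferation marker Mki67 was nearly level in Il10rb-/- (1267, 1130.0 and 1111) and lower at 3 weeks in Il10rb+/- (1510.1, 769 and 872). Mcm3, a subunit of the replicative helicase, had 1378 normalized counts at 1 week and 1459.7 at 3 weeks in Il10rb-/-.

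Among the genes lower at 3 weeks, Spint1 ranked first. It encodes an inhibitor of cell-surface serine proteases (chr2:119237362-119249527) and had 3202 normalized counts at 1 week, 33.4 at 3 weeks and 3503 at 12 weeks in Il10rb-/-, and 3204, 58.4 and 2543 in Il10rb+/-. It was thus 95.8-fold lower at 3 weeks than at 1 week in Il10rb-/-, and low in both 3-week libraries and in no other. Kcnip3, a calcium-binding protein gene on the same chromosome (chr2:127456498-127522094), showed the same shape, with 109, 1 (0 reads) and 38.8 in Il10rb-/- and 138, 1 (0 reads) and 99.8 in Il10rb+/-. It was at least 41.4-fold lower at 3 weeks in Il10rb-/-, against a floor of 3 reads.

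Capn3, Npnt, Gas1 and Sox4 were lower at 3 weeks and lower still at 12 weeks in Il10rb-/-. Capn3, a calpain protease gene (chr2:120456019-120504913), had 586, 38.7 and 14.6 in Il10rb-/- and 1035, 94.9 and 114 in Il10rb+/-. Npnt, an extracellular matrix gene, had 205, 20.2 and 5.73, and Gas1, a growth arrest gene, 344, 44.0 and 14.0. The transcription factor gene Sox4 had 858, 127 and 53.5. Of the others ranked highest, coagulation factor F9 had 35 and 3 reads. Kcnk12 was 17.0-fold lower in Il10rb-/- and 3.31-fold in Il10rb+/-, Nrep 15.3-fold and 1.86-fold, and Lrrc4c 9.71-fold and 4.33-fold. Spib, an ETS factor of B cells and plasmacytoid dendritic cells, was 9.25-fold and 3.81-fold lower. Gpm6b had 127 and 13.2 normalized counts in Il10rb-/-, while in Il10rb+/- it had 15 reads at 1 week and 13 at 3 weeks, with an interval that includes 0 (log2 ratio 1.09, interval -0.10 to 2.26).

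Ctla4, the checkpoint receptor best known from T cells (chr1:60887000-60915832), ranked first among the genes higher at 3 weeks. It had 0 reads at 1 week and 391 at 3 weeks in Il10rb-/-, at least 76.5-fold higher against a floor of 3 reads, and 1137 normalized counts at 12 weeks. In Il10rb+/- it had 18.8, 99.8 and 348. The summed level of the T and NK cell list was 124 normalized counts at 1 week and 384 at 3 weeks in Il10rb-/-, and 124 and 341 in Il10rb+/-. Of its defining genes, Cd3e had 1 and 12 reads, Cd3d 1 and 14, and Cd8a 0 in both Il10rb-/- libraries. Of 15 listed genes 2 passed the filter, Lck (16.5 and 60.7 normalized counts) and Cd2 (41.9 and 156.5), and both were over 3-fold higher. Both passed only through the 3-week library, so the filter itself made them higher at 3 weeks. Their part in the Ctla4 result was not tested.

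Markers of other cell types also differed between the 2 libraries. Of the epithelial list 9 of 18 genes passed the filter, with 3 over 3-fold higher and 1, Spint1, lower. Without Spint1, its summed level was 1024 normalized counts at 1 week and 916 at 3 weeks in Il10rb-/-, and 190.4 and 1820.3 in Il10rb+/-. The stromal and endothelial list summed to 1901 and 4216 in Il10rb-/- and 951 and 3996 in Il10rb+/-, with Lum over 3-fold higher and Acta2 over 3-fold lower in Il10rb-/-. The B and plasma cell list summed to 1525 and 812 in Il10rb-/-, with Ms4a1 over 3-fold lower and Jchain over 3-fold higher. In the eosinophil list 3 of 11 genes passed, and Rnase2a, the one past 3-fold, had 3 and 207 reads. Of the neutrophil list 3 of 14 genes passed, each higher with an interval above 0. They were Csf3r (1559 and 2120.1), Mmp8 (162 and 262) and the gelatinase gene Mmp9 (247 and 1397), which was 5.65-fold higher in Il10rb-/- and 2.14-fold in Il10rb+/-. The list's summed level was 2010.0 normalized counts at 1 week and 3829 at 3 weeks in Il10rb-/-, and 2773 and 4361 in Il10rb+/-. Its defining genes S100a8 and S100a9 had 2 and 0 reads at 1 week and 3 and 6 at 3 weeks, at the floor or near it. Of 9 dendritic cell genes past the filter only Siglech, shared with microglia and plasmacytoid dendritic cells, was past 3-fold (2703 normalized counts at 1 week and 583 at 3 weeks), and Kit was the lone mast cell gene past the filter (163 and 541). The part of these cells in the results was not tested.

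Stress and RNA quality measures differed as well. All 13 heat shock genes were higher at 3 weeks, against 5192 of all 10320 genes. Over 3-fold higher were 3, against 2.8% of all genes, and the list's median was 1.07 in Il10rb-/- and 0.69 in Il10rb+/-. The chaperone genes Hsph1 (1342 and 8054) and Dnaja1 (3036 and 12970.3) led the list. Immediate early genes had medians of 0.71 and 0.77 in the 2 genotypes. All 9 mitochondrially encoded genes past the filter had a ratio under 0 in Il10rb-/-, as did 5128 of all 10320 genes. The median of the 9 was -0.44 in Il10rb-/-, against 0.04 in Il10rb+/-. Xist, expressed from the inactive X chromosome, had 8217 normalized counts at 1 week and 3945 at 3 weeks in Il10rb-/-, and none of 4 Y-linked genes passed the filter there. In Il10rb+/- Xist had 4777 and 5208. Xist and the 4 Y-linked genes summed to 8226 and 3954 in Il10rb-/- and to 5891 and 5220 in Il10rb+/-. Of these 5 genes, 0 lacked reads in the 1-week Il10rb+/- library, against 3 in the 1-week Il10rb-/- library. The part of sex, stress and RNA quality in the results was not tested.

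The only test of age that the design allows takes the genotypes as the 2 samples of each age. In limma with age and genotype as terms over the 4 libraries, 879 genes (8.52%) were higher and 497 (4.82%) lower at 3 weeks at a Benjamini-Hochberg adjusted p of 0.05. Of the Il10rb-/- genes past 3-fold, 245 of 289 and 47 of 84 were among them. The 2 Il10rb-/- libraries by which those genes were picked are also in the fit, so this overlap is not independent support. The fit has 1 residual degree of freedom and took its error from the trend over all genes, so that a gene's own disagreement between the genotypes did not widen its error, and it cannot test Il10rb-/- alone. With the 12-week libraries added, 1 gene was higher and 1 lower, with 624 and 283 at an unadjusted p of 0.05. By list, it called 14 of 15 long-lived MΦ genes, 10 of 13 monocyte genes and 20 of 36 interferon genes higher, and 24 of 32 cell cycle genes lower.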

How the data were processed

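RNA of sorted colonic P3/P4 MΦs was sequenced in 6 libraries as polyadenylated RNA, 1 per genotype and age as their labels give them. Per the labels and the study's methods, the authors trimmed single-end reads (Trim Galore), aligned them to mm10 (TopHat, default settings), counted them on genes (HTSeq) and normalized the counts between libraries with DESeq size factors. Versions, annotation and strand setting are not given in the sources used here. The deposited values are thus a normalized signal, named normalized counts, with a count of 0 shown as 1. The methods name oligo dT beads where the labels name a SMART-Seq kit.

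Apart from 1, all values of a library (100%, within 0.02 of a read) were whole multiples of the same step, by which reads per gene were read back. Genes with 50 or more normalized counts in either Il10rb-/- library (33.4 reads at 1 week, 56.9 at 3 weeks) were kept. Log2 ratios used the deposited values. Their 95% intervals were derived from exact Clopper-Pearson limits on reads and hold counting error alone. Against a library with 0 reads, folds are bounds taken at 3 reads. Genes were called past 3-fold, the study's own size rule. No count model was used on the reads read back, because the deposited values are normalized and their zeros are replaced. Age over both genotypes was tested with limma 3.58.1 (R 4.3.3), two-sided, on log2 of the value plus 1 with trended empirical Bayes moderation, adjusted after Benjamini and Hochberg. Each group held 1 library, and the error came from the trend over all genes. Such p-values therefore do not measure a gene's own spread between these libraries or between animals. Other steps ran in pandas 2.3.3, numpy 2.4.6 and scipy 1.17.1 under Python 3.11.15, plots in matplotlib 3.10.9, and the statistics were tested on simulated data.

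The genes named are the 12 highest and 12 lowest at 3 weeks by the interval end nearest to 0, among protein-coding genes with a proper name, Il10rb, Il10, Il10ra, Tnf, Il6, Il1b, Il1a, Il12a, Il12b, Il23a and Nos2, and up to 6 members of each list past 3-fold by the same rank or its most abundant members. Other members were named after their values were seen. The 36 lists and the genes compared were chosen with earlier results of these data known. Coordinates are from GENCODE (GRCm38), in which 14085 of 14097 genes were found. Promoters printed are those of the 3 interferon members ranked highest with an entry in the promoter table, those on chromosome 18 left out. Alternatives were other scalings (TMM and total reads), filters, a pseudocount of 10, equal depth and the near end of the interval. Values of some single genes are not reported here.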

Additional observations from a re-analysis of the deposited data

Results flagged for a closer look

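Among the genes named by rule, Il12b and Ccl5 moved in opposite directions in the genotypes by over 1.5-fold in each and by over 3-fold in Il10rb-/-, with the counting intervals on either side of 0. The log2 ratio of Il12b was 1.71 in Il10rb-/- and -1.46 in Il10rb+/-, and that of Ccl5 was 2.04 and -0.70. With 1 library per genotype and age, the difference between the genotypes was not tested.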

How the results depend on the processing

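The main counts were 289 genes over 3-fold higher and 84 lower at 3 weeks in Il10rb-/-, with 55.2% of both moving 3-fold the same way in Il10rb+/-. With TMM factors they were 287 and 84, and with libraries thinned to equal depth 280 and 85. Scaling by total reads shifted the median log2 ratio of all genes from 0.003 to -0.18 and gave 232 and 108, so that 68.2% of the calls were higher, against 77.5%. Filters moved the counts most. Without a filter beyond 1 read there were 874 and 539, with a share of 36.9% the same way in Il10rb+/- and 61.9% of calls higher. A filter of 200 gave 168 and 24 (87.5% higher), and 50 or more in any of the 6 libraries gave 127 lower. A pseudocount of 10 left 49 lower, and the near end of the counting interval 164 and 29. Scaling by total reads reversed the median of the CXC chemokine list to -0.055 and the log2 ratio of Il1a to -0.095. Without the members of the study's heat map, an alternative added after the data were seen, the interferon median was 1.22.

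In the limma fit of 4 libraries, adding the 12-week libraries left 1 gene higher and 1 lower of 879 and 497. Leaving out each library in turn from all 6 gave between 0 and 905 higher and between 1 and 482 lower. Without the 1-week library of Il10rb-/- there were 16 higher and without that of Il10rb+/- 5, and without either 3-week library 0, with 1 lower in each case. Only leaving out a 12-week library, of either genotype, kept the counts within 1.5 times. No replicate could be left out of the 4-library fit, which would have no residual degree of freedom. The planned edgeR and DESeq2 fits were not run, since the deposited values are normalized and show a count of 0 as 1. Reads could be read back from them, but served only for intervals, floors, scaling and thinning. No paired analysis was possible because each group holds 1 library. Depth limits the low genes: 33.4 reads stood behind the filter at 1 week.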

Other observations

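Several genes known from microglia and other embryonically seeded MΦs, picked after their values were seen, were lower at 3 weeks in both genotypes. Siglech had 2703, 583 and 1.0 normalized counts at 1, 3 and 12 weeks in Il10rb-/-, and 6331, 1686 and 1055 in Il10rb+/-. Olfml3, which encodes a secreted glycoprotein, had 959, 241 and 22.9 in Il10rb-/-, and 885, 127 and 356 in Il10rb+/-. The sialyltransferase gene St3gal6 had 1378, 365 and 84.7 in Il10rb-/-, and 1724, 657 and 604 in Il10rb+/-. The adhesion receptor gene Adgrl3 had 819, 221 and 4.46 in Il10rb-/-, and 1461, 285 and 157 in Il10rb+/-. In the 4 genes, picked with these values known, the 1-week library was the highest of each genotype. The long-lived tissue MΦ list went the other way, with 15 of 15 genes higher at 3 weeks in Il10rb-/- and 14 of 15 in Il10rb+/-.

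Vps18 and Rhov lie next to Spint1 on chromosome 2. Vps18 (chr2:119288740-119298453) was level in Il10rb-/-, with 2657, 2584 and 1855 normalized counts, and in Il10rb+/-, with 2530.3, 2434 and 2817. Rhov (chr2:119269201-119271272) had 148, 42.2 and 1717 in Il10rb-/- and 34.7, 41.4 and 388 in Il10rb+/-.

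In all, 3 genes were past 3-fold in opposite directions in the 2 genotypes. Adora2a, which encodes an adenosine receptor, had 41.9 and 254 normalized counts in Il10rb-/- and 31.7 and 9.73 in Il10rb+/-. The Il10rb+/- values rest on 32 and 4 reads (interval of the log2 ratio -3.67 to -0.21). Il2rb, a chain of the IL2 and IL15 receptors, had 3 and 69 reads in Il10rb-/- and 22 and 0 in Il10rb+/-. Itih5 had 55.4 and 16.7 in Il10rb-/- and 8.92 and 46.2 in Il10rb+/-. These rest on 37 and 19 reads in Il10rb-/- (interval -2.61 to -0.89) and 9 and 19 in Il10rb+/- (1.16 to 3.70). Adora2a is in the study's heat map. The difference between genotypes was not tested.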
